A study of Mus musculus with 29 samples.

Results

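The genes of the matrix metalloproteinases (MMPs), of the ADAMTS proteases and of the TIMPs, their tissue inhibitors, were examined for peaks of HA-tagged transcription factors (TFs) in fibroblasts. Members were the protein-coding genes of the mouse annotation (GENCODE vM21, build mm10) with the symbol Mmp or Adamts and a number, or Timp1 to Timp4. This gave 45 of 21938 protein-coding genes, of which 22 were Mmp genes, 19 Adamts genes and 4 Timp genes. Each member was given a window of its gene body plus 20 kb on either side, and the 45 windows covered 4.80 Mb once overlaps were joined.

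The peaks came from NIH-3T3 cells, an established mouse fibroblast line, in which each TF with 3 HA tags at its C-terminus was expressed from a doxycycline-inducible lentiviral transgene. Doxycycline was given at 500 ng/ml overnight in every case, before fixation in 1% formaldehyde and precipitation with an antibody to HA (ChIP-seq). There were 28 peak lists of 24 constructs, beside 1 input sample of chromatin that was not precipitated, for which no list was analysed. The wild-type TFs BHLHB8, FOXA1, OCT4 (Pou5f1) and SOX2 had 2 lists each. BRACHYURY, CDX2, DLX1, DLX6, DUXBL, EBF1, HLF, MAX, NANOG, PRR3, RHOX11, SIX6, SOX15, TEAD1, THAP4, TOX3 and ZFP319 had 1 list each, as did the FOXA1 mutants RR and SW, made to bind DNA less outside their motif, and OCT4-HA in cells that also made SOX2 with a YPet fluorescent tag. Every TF was therefore supplied by a transgene, and no list shows an untagged TF at its own level. The lists hold positions without heights or read numbers, so depth is unknown, and they ran from 52 to 61991 peaks. RNA was not measured, so neither the fibroblast markers nor the activity of any member could be checked.

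MMPs are zinc-dependent endopeptidases that cut collagens, gelatin, proteoglycans and other matrix proteins, and most are secreted as inactive precursors. ADAMTS proteases are secreted relatives with thrombospondin repeats, among them the aggrecan-cutting enzymes and those that trim procollagen. TIMPs bind the active site of MMPs and block it. The promoters of several MMP genes are textbook targets of AP-1, the dimer of Fos and Jun proteins that binds TGAGTCA.

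Touching peaks, whatever their construct, were joined into 168506 merged sites, and 437 of these lay in member windows. At least 1 site was found at 42 of the 45 members (93.3%), where 88.5% of all protein-coding genes had one. The members without a site were Mmp1b, a collagenase, Mmp10, a stromelysin, and Timp1 on the X chromosome. Members had a median of 7 sites, against 6 for all protein-coding genes, and their median density of 86.2 sites per Mb of window lay beside the 88.1 of all genes. Over the joined windows the density was 91.1 sites per Mb, 1.13 times the 80.5 of all gene windows (interval 1.03 to 1.24, counting error over sites alone). As a mean over constructs of each construct's own ratio it was 0.867, with 6 constructs counted as 0. No list of these 6 had more than 396 peaks, too few to measure a share this small, so this mean sets no direction. Among the 20 lists with more than 1000 peaks the ratio was above 1 in 15 and below 1 in 5. The 15 include both duplicates of BHLHB8-HA, SOX2-HA and FOXA1-HA, so these lists are not separate constructs. Adamts12 alone held 67 of the 437 sites (15.3%), and without it the ratio was 1.03.

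Of the 437 sites, 335 (76.7%) had a peak of 1 construct, 80 had peaks of 2 to 4, and 22 (5.03%, exact 95% interval 3.18 to 7.52) had peaks of 5 or more. Over all sites of the genome the shares of single sites and of sites of 5 or more constructs were 76.3% and 5.60%. Sites of 5 or more constructs, called shared sites from here on, were found at 10 members (22.2%), where 24% of all protein-coding genes had one. These were Mmp2 with 5 shared sites, Timp2 and Adamts12 with 4 each, Timp3 and Adamts14 with 2 each, and Mmp11, Mmp14, Mmp19, Mmp28 and Adamts2 with 1 each. The number of members with a shared site therefore lay near the background, and the 22 sites were unevenly spread among them.

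**Figure D1:**
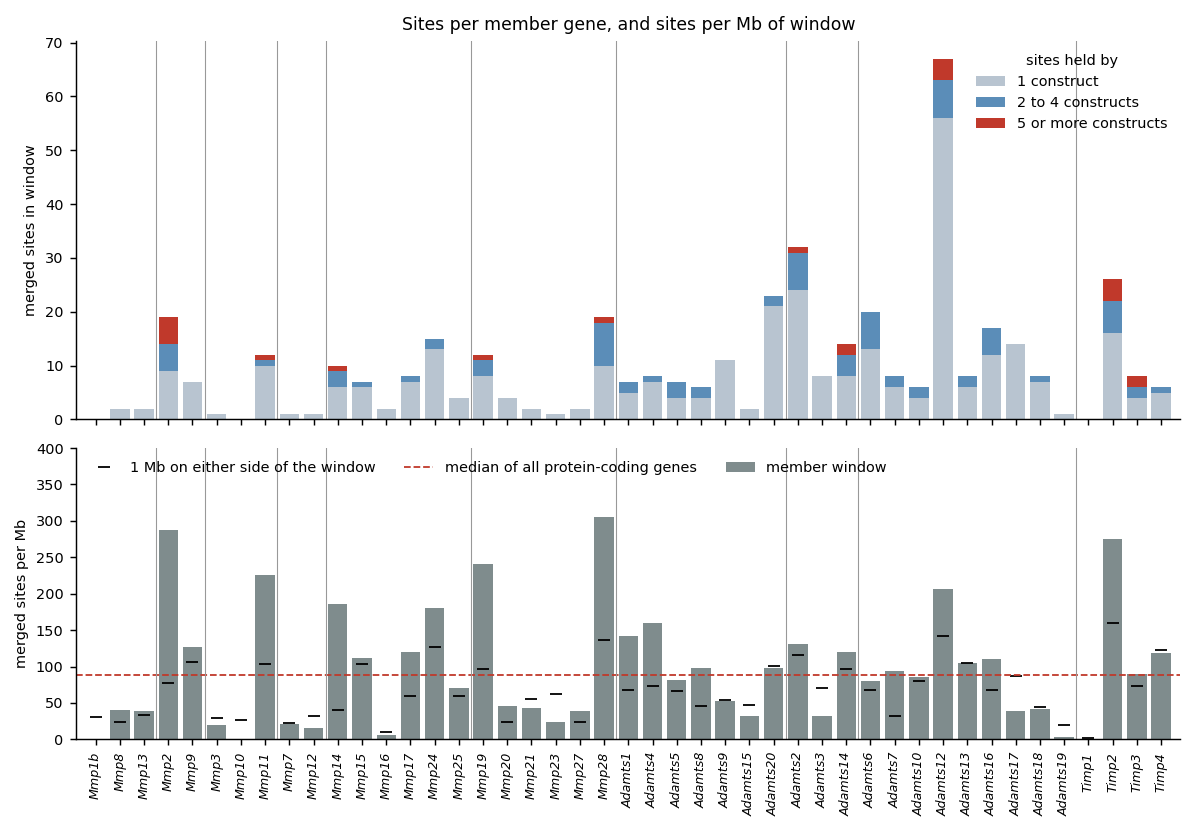
Merged sites in the window of each member, stacked by the number of constructs with a peak at the site (upper plot), and sites per Mb of window (lower plot), with black marks for the density in 1 Mb on either side of the window and a dashed line for the median of all protein-coding genes, 88.1 per Mb. Genes are grouped by role, separated by grey lines. Adamts12 has 67 sites, Mmp2 has 5 sites of 5 or more constructs, and Mmp1b, Mmp10 and Timp1 have none.

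The sequences at shared sites are shown first, because the AP-1 letters TGAGTCA, which read TGACTCA on the opposite strand, lay in 8 of the 22 against a smaller share of single sites, as described further on. Each line gives the 200 bases around the mean midpoint of the peaks at one shared site, from the GRCm38 reference on its forward strand, with AP-1 letters in capitals. The first 3 are the AP-1 sites among the 10 sites with most constructs, in which the Mmp2 site took the last place by genome order from a tie of 5 sites with 7 constructs, and those of Timp2, Adamts12 and Adamts2 were chosen after their values were seen, so that each gene with such a site has 1. None of the printed stretches touches an annotated untranslated region.
Mmp28, intron, 9 constructs, chr11:83458090-83458289: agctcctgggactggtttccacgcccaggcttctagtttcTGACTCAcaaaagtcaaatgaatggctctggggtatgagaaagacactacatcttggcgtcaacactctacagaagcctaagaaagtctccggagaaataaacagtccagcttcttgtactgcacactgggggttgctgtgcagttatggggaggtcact
Mmp11, upstream, 8 constructs, chr10:75944288-75944487: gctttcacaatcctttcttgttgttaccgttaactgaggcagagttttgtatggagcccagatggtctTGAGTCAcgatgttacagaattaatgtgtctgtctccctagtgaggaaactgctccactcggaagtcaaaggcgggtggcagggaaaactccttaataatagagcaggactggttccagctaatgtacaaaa
Mmp2, intron, 7 constructs, chr8:92849398-92849597: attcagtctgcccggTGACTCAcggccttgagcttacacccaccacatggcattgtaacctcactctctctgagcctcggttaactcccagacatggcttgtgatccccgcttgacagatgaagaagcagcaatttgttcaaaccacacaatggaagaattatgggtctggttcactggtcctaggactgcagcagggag
Timp2, upstream, 7 constructs, chr11:118365235-118365434: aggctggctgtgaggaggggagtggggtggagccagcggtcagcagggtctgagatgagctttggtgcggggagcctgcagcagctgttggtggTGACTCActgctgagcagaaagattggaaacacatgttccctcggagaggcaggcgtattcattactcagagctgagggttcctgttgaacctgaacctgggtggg
Adamts12, intron, 7 constructs, chr15:11095699-11095898: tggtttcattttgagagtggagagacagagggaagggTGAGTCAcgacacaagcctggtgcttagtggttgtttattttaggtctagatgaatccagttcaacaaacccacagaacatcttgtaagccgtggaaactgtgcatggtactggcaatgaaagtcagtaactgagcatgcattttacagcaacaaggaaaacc
Adamts2, intron, 5 constructs, chr11:50700551-50700750: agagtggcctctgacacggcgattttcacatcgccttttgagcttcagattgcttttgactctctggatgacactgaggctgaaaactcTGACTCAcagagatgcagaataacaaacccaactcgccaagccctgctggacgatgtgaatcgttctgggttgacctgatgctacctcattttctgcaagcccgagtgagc
The last line of the set is the site with the most constructs of all, downstream of Mmp2, whose 200 bases hold none of the 14 motifs searched.
Mmp2, downstream, 10 constructs, chr8:92867384-92867583: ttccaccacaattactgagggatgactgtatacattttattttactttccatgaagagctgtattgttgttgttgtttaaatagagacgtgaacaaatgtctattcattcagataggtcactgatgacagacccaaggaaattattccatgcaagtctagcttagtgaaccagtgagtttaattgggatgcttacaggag

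Among the gelatinases, Mmp2 and Mmp9, the 2 genes differed. Mmp2, gelatinase A, had 19 sites of 14 constructs at 287 sites per Mb, the second densest window of all members. BHLHB8-HA had 11 and 8 peaks there in its duplicates, SOX2-HA 7 and 1, FOXA1-HA 2 and 0, DLX6-HA 7, DLX1-HA 5 and SIX6-HA 4. All 5 shared sites of Mmp2 had BHLHB8-HA, DLX6-HA and SOX2-HA peaks. They lay 1221 bp upstream of the nearest Mmp2 start, in 3 introns, and 12088 bp from the start of Lpcat2, a neighbouring gene whose body the 10-construct site (chr8:92867154-92868071) lies in. Mmp9, gelatinase B and a textbook AP-1 target, had 7 sites, all of single constructs and none at its promoter. TEAD1-HA had 3 of them, and BHLHB8-HA, DLX6-HA, DUXBL-HA and ZFP319-HA 1 each. Downstream of Mmp9, TEAD1-HA sites lay 5 and 76 bp from starts of the neighbouring gene Slc12a5, and the ZFP319-HA site 1095 bp from one. The 1 Mb on either side of these windows held 78.0 sites per Mb around Mmp2 and 106 around Mmp9, so Mmp2 stood above its surroundings and Mmp9 (127 per Mb) lay near them.

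The collagenases, matrilysin, the macrophage elastase and 2 stromelysins were nearly free of sites. These are 7 of the 9 members, with Mmp20 (enamelysin) and Mmp27, that lie side by side on chromosome 9 between 7272514 and 7699585. The 9 windows held 12 sites in 0.407 Mb, or 29.5 per Mb, against 96.9 per Mb in the windows of the other 36 members. All 12 were single sites, and none lay within 1 kb of a start of a cluster gene. Mmp13, collagenase 3, had a SOX2-HA site found in both lists 9877 bp upstream of its start and a CDX2-HA site 7914 bp upstream. Mmp3, stromelysin 1, had 1 BHLHB8-HA site 4285 bp upstream. Mmp8, the neutrophil collagenase, had a FOXA1-HA site 10789 bp upstream and shared with the window of Mmp27 a DUXBL-HA site at the 3′ end of that gene, beside which Mmp27 had a BHLHB8-HA site. Mmp20 had 4 sites, of BHLHB8-HA, CDX2-HA, DUXBL-HA and ZFP319-HA, and Mmp7 and Mmp12 had 1 each. The 1 Mb on either side of each of the 9 windows held 23.0 to 33.5 sites per Mb. These flanks overlap one another and take in the other cluster genes, so they are not separate measurements.

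RefSeq gives promoter sequences, 250 bases before to 50 after a start on GRCm38.p6, for 31 of the 45 members, with 34 promoters among them. All 9 cluster members were among the 31, so the members that could not be searched all lay outside the cluster. AP-1 letters were present in 6 of the 34 (17.6%), against 5.20% of all 32851 RefSeq promoters, and all 6 belonged to the chromosome 9 cluster: Mmp1b, Mmp3, Mmp7, Mmp10, Mmp12 and Mmp13. AP-1 was not alone in this, since forkhead letters (TGTTTAC or TATTTAC) were also in 6 of the 34, against 6.54% of all promoters. Other sequences lay below their share, such as the TEAD letters CATTCC with 5.88% against 14.7%. None of these shares was tested. No peak of any construct overlapped the 100-base stretches upstream of the start that hold the AP-1 letters of these 6 genes. The AP-1 letters match without saying whether Fos and Jun bind there in these cells, since neither was precipitated. A stretch of 100 bases is given for 3 of the genes, which runs up to the RefSeq start for Mmp13 and Mmp3 and stops 3 bases short of it for Mmp10, on the strand of the gene, which is the forward strand for each, with AP-1 letters in capitals.
Mmp13, chr9:7272414-7272513: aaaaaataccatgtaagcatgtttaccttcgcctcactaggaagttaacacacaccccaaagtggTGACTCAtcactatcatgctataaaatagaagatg
Mmp3, chr9:7445722-7445821: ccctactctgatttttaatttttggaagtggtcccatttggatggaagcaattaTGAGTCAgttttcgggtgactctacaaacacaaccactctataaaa
Mmp10, chr9:7502239-7502338: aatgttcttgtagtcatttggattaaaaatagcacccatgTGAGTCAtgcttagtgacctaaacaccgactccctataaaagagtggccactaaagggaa
The capitals start 35, 46 and 63 bases before the start of Mmp13, Mmp3 and Mmp10. Mmp1a, the other interstitial collagenase gene of the cluster, is annotated as a polymorphic pseudogene and is no member, but its RefSeq promoter holds the letters too and has no peak.

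Outside the cluster, the MMPs ranged from Mmp28, the densest member with 305 sites per Mb, to Mmp16, a membrane-type MMP with 2 sites in 306 kb. Mmp28, epilysin, had 19 sites of 15 constructs, with 14 of BHLHB8-HA, 4 of EBF1-HA and 3 each of SOX2-HA and DLX6-HA, and a 9-construct site in its intron 4772 bp from the start. Mmp11, stromelysin 3, had 12 sites and Mmp19 12, and in each gene the 8-construct site lay upstream, at -7891 and -11496 bp from the start. The site near Mmp11 lay 1330 bp from the start of Vpreb3, a B-cell gene, and within that gene's annotated extent. The 6 membrane-type MMPs had 46 sites together and 1 shared site, in an intron of Mmp14 (MT1-MMP, the activator of pro-MMP2), 11298 bp from its nearest start. Mmp24 had 15 sites, 11 of them BHLHB8-HA sites, and no shared one. Mmp15, Mmp17 and Mmp25 had 7, 8 and 4 sites, Mmp21 had 2, and Mmp23 had 1.

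The TIMPs ranged from 0 sites at Timp1 to 26 at Timp2. Timp2, which together with MT1-MMP activates pro-MMP2, had 26 sites of 15 constructs at 275 per Mb, against 160.5 per Mb in the 1 Mb on either side. BHLHB8-HA had 17 and 12 peaks there, ZFP319-HA 6, DLX1-HA and EBF1-HA 5 each, SOX2-HA 4 and 0, FOXA1-HA 4 and 2, and TOX3-HA 3. Its 4 shared sites had 8, 8, 7 and 6 constructs, with 2 of them 5330 and 9594 bp upstream of the start and 2 in introns. The intronic ones lay 27937 and 33155 bp from the nearest Timp2 start, and nearer to a start of Cep295nl, at 6447 and 11665 bp. Timp3, the matrix-bound inhibitor of ADAMTS proteases and of ADAM17, had 8 sites of 12 constructs. Its 2 shared sites, of 9 constructs each, lay in introns 8029 and 37092 bp from the nearest start, in DNA that is also intronic to Syn3, the gene in which Timp3 is nested. Timp4 had 6 sites, and the one with most constructs, 19824 bp upstream, had BHLHB8-HA, DLX1-HA and EBF1-HA peaks. Timp1 had none in any of the 28 lists, and the 1 Mb on either side of its window held 5 sites, or 2.50 per Mb.

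**Figure D2:**
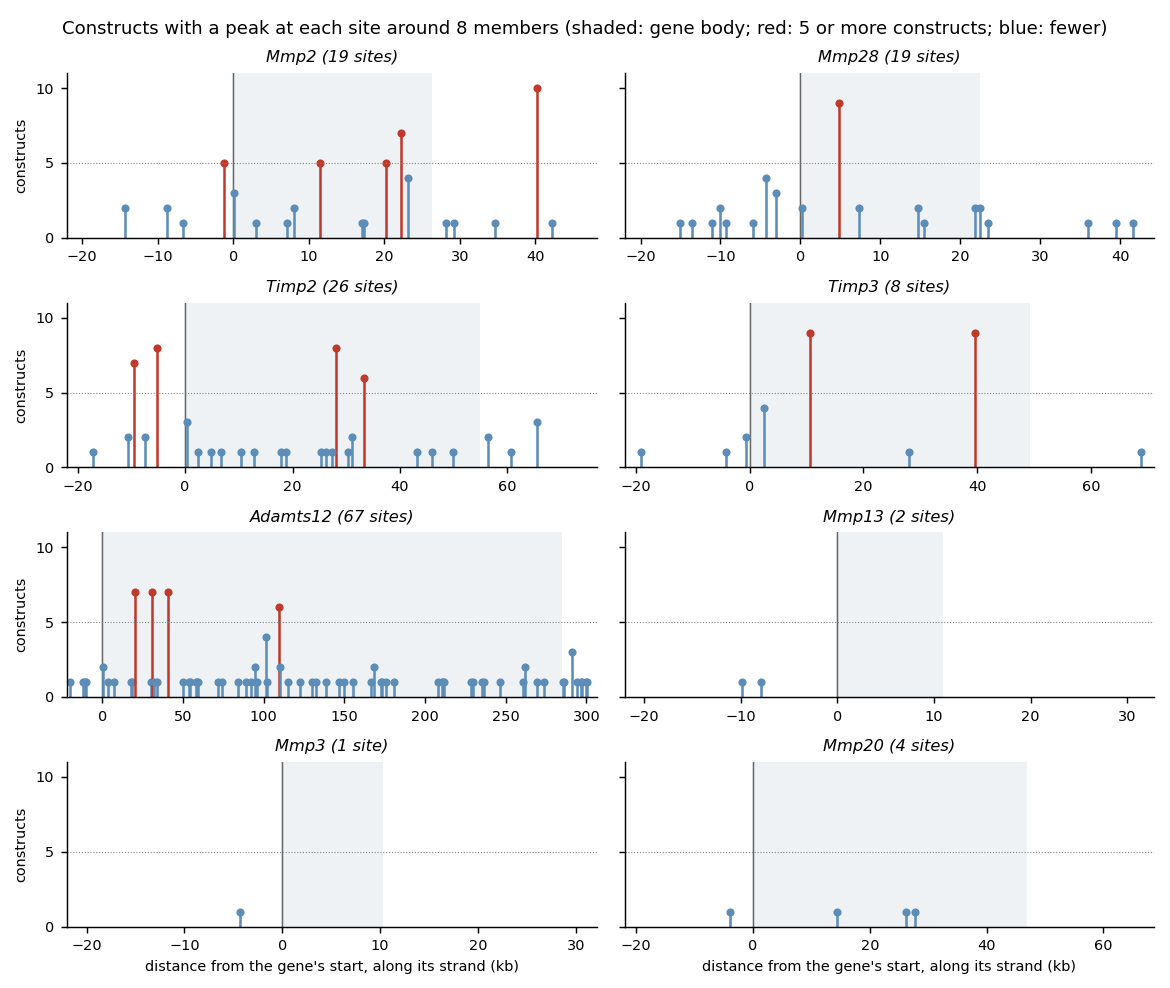
Number of constructs with a peak (vertical axis) at each merged site, by distance in kb from the gene's start along its strand (horizontal axis), for 8 members, with the gene body shaded, sites of 5 or more constructs in red and a dotted line at 5. Mmp2, Mmp28, Timp2, Timp3 and Adamts12 have sites of 5 to 10 constructs away from the start, while Mmp13, Mmp3 and Mmp20 of the chromosome 9 cluster have 2, 1 and 4 sites of 1 construct each.

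The ADAMTS genes held 267 of the 437 sites in 3.10 Mb, 86.0 per Mb. All 19 had at least 1 site. The 7 proteoglycan-cutting genes, Adamts1, Adamts4, Adamts5, Adamts8, Adamts9, Adamts15 and Adamts20, had 64 sites and no shared one, although Adamts1 had 2 promoter sites of 4 constructs. The 3 procollagen N-proteinases, which remove the amino-terminal propeptide of fibrillar collagens, had 54 sites and 3 shared ones. Adamts2 had 32 sites of 12 constructs, with 20 of BHLHB8-HA, and Adamts14 had 14 sites of 10 constructs with shared sites of 8 and 6 constructs upstream, at -4625 and -13069 bp from the start. Adamts3 had 8 sites in 246 kb, none shared.

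Adamts12, which cuts cartilage oligomeric matrix protein, had 67 sites of 16 constructs in 324 kb, or 207 per Mb, against 142 per Mb in the 1 Mb on either side. BHLHB8-HA had 19 and 17 peaks there, SOX2-HA 14 and 3, CDX2-HA 10, DLX6-HA 9, DUXBL-HA 7, DLX1-HA 6 and MAX-HA 4. Of the 67 sites 56 were single, 20 of them of BHLHB8-HA. The 4 shared sites lay in introns 19990, 30989, 40544 and 109306 bp from the start. Adamts20, Adamts6, Adamts16 and Adamts17 had 23, 20, 17 and 14 sites without a shared one. Adamts19 had 1 site in 257 kb, 3.89 per Mb, of TEAD1-HA.

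**Figure D3:**
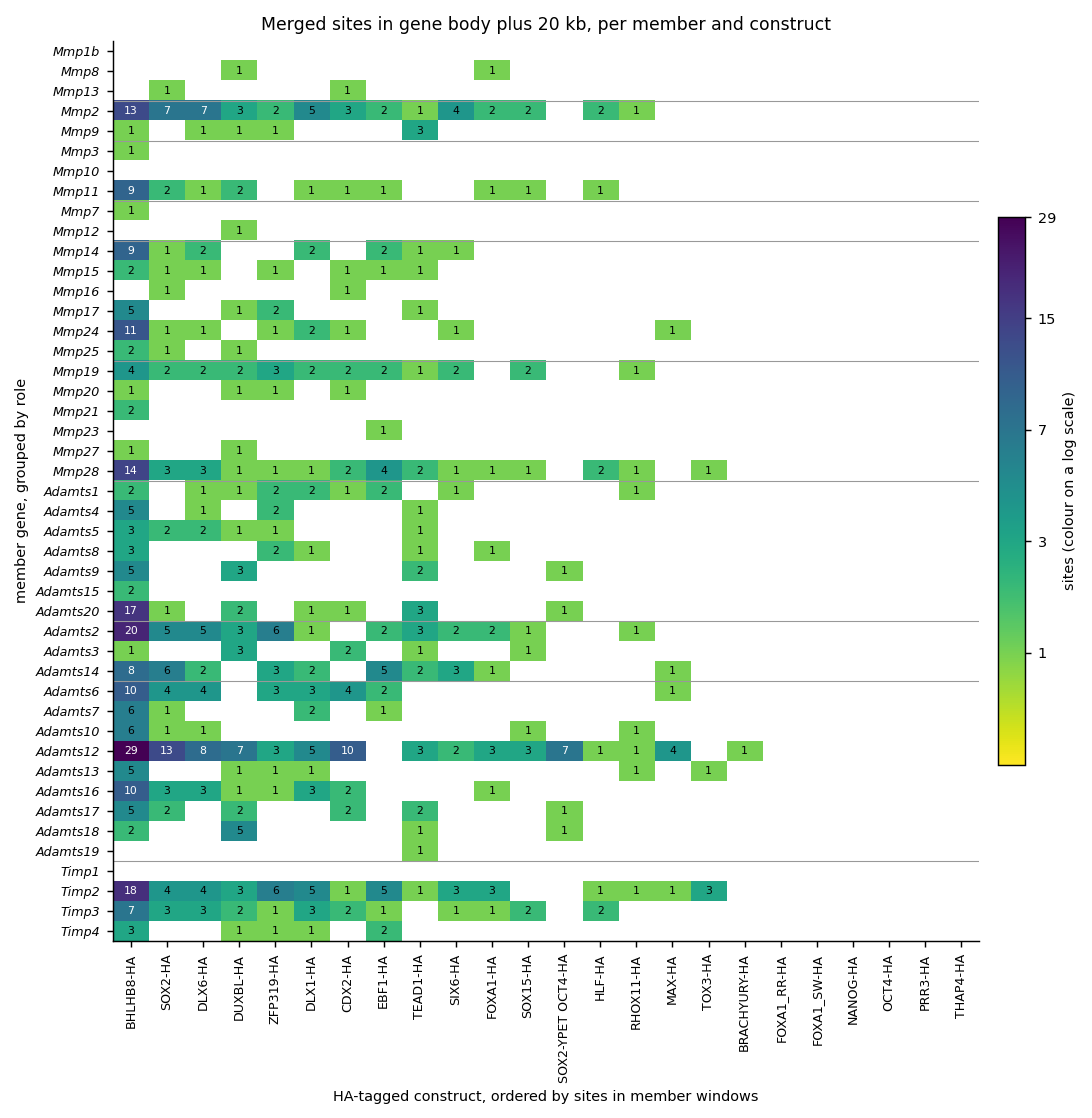
Number of merged sites in the window of each member (rows, grouped by role with grey lines between groups) for each construct (columns, from most to fewest member sites), with the number printed and the colour on a log scale. BHLHB8-HA has sites at 36 members and up to 29 at 1 member, and 6 constructs have none. The co-expression list (SOX2-YPET OCT4-HA) has sites at 5 Adamts genes alone, and Adamts windows cover 3.10 of the 4.80 Mb of member windows.

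The constructs were compared next by the share of members they touched and by the share of their peaks in member windows. BHLHB8-HA, a basic helix-loop-helix TF of secretory cells, had 160 and 171 member peaks at 28 and 36 members (62.2% and 80.0%), where 67.9% and 78.8% of all protein-coding genes had a peak of the respective list. SOX2-HA had 66 and 16 peaks at 22 and 13 members (48.9% and 28.9%), with backgrounds of 41.5% and 16.0%. FOXA1-HA had 18 and 3 at 11 and 2 members, 24.4% and 4.44%, with backgrounds of 17.0% and 3.89%. DLX6-HA (53 peaks, 19 members, background 38.1%) and DLX1-HA (45 peaks, 19 members, background 46.5%) both reached 42.2% of the members. DUXBL-HA had 50 peaks at 25 members (55.6%, background 44.6%), and ZFP319-HA 44 peaks at 21 members (46.7%, background 42.8%). CDX2-HA, the intestinal homeodomain TF, had 38 peaks at 18 members (40%, background 40.7%). EBF1-HA, a TF of B cells and fat cells, had 33 peaks at 15 members (33.3%, background 26.5%). TEAD1-HA, the DNA-binding partner of YAP, had 32 peaks at 20 members (44.4%, background 55.5%).

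Smaller lists touched fewer members. SIX6-HA had 21 peaks at 11 members (24.4%, background 17.5%), SOX15-HA 15 at 9 (20.0%, background 13.7%), and RHOX11-HA 8 at 8 (17.8%, background 23.7%). MAX-HA had 8 peaks at 5 members (11.1%, background 14.5%), HLF-HA 9 at 6 (13.3%, background 9.48%), TOX3-HA 5 at 3 (6.67%, background 6.33%), and BRACHYURY-HA 1 at 1 (2.22%, background 2.30%). The co-expression list had 11 peaks at 5 members (11.1%, background 10.4%). The lists without a member peak were those of FOXA1_RR-HA, FOXA1_SW-HA, NANOG-HA, PRR3-HA, THAP4-HA and both OCT4-HA replicates, whose backgrounds were 0.583%, 0.565%, 1.12%, 0.287%, 0.269%, 0.442% and 0.219%. None of these 7 lists had more than 396 peaks. Among the 20 lists with more than 1000 peaks, the members' share lay above the background in 14 and below it in 6. Member windows were longer, with a median of 65.1 kb against 57.4 kb for all protein-coding genes. Longer windows collect more peaks, and these shares were not adjusted for length. Both duplicates of BHLHB8-HA, SOX2-HA and FOXA1-HA were counted among the lists.

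The density of member peaks relative to all gene windows ran from 0.666 in CDX2-HA to 1.69 in EBF1-HA over these 20 lists, with a median of 1.22, and it was above 1 in 15 lists. EBF1-HA had 0.430% of its peaks in member windows (exact 95% interval 0.296 to 0.604), where its density over all gene windows gives 0.255%. BHLHB8-HA replicate 1 had 0.342% (interval 0.291 to 0.399) for 0.249%, and replicate 2 had 0.276% (interval 0.236 to 0.320) for 0.250%, so the excess was beyond counting error in 1 of the duplicates. CDX2-HA had 0.150% (interval 0.106 to 0.206) for 0.226%. The intervals of the other 16 lists included the share expected from all gene windows. Intervals and the limits for lists without a peak cover counting error only, and most constructs have no replicate.

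**Figure D4:**
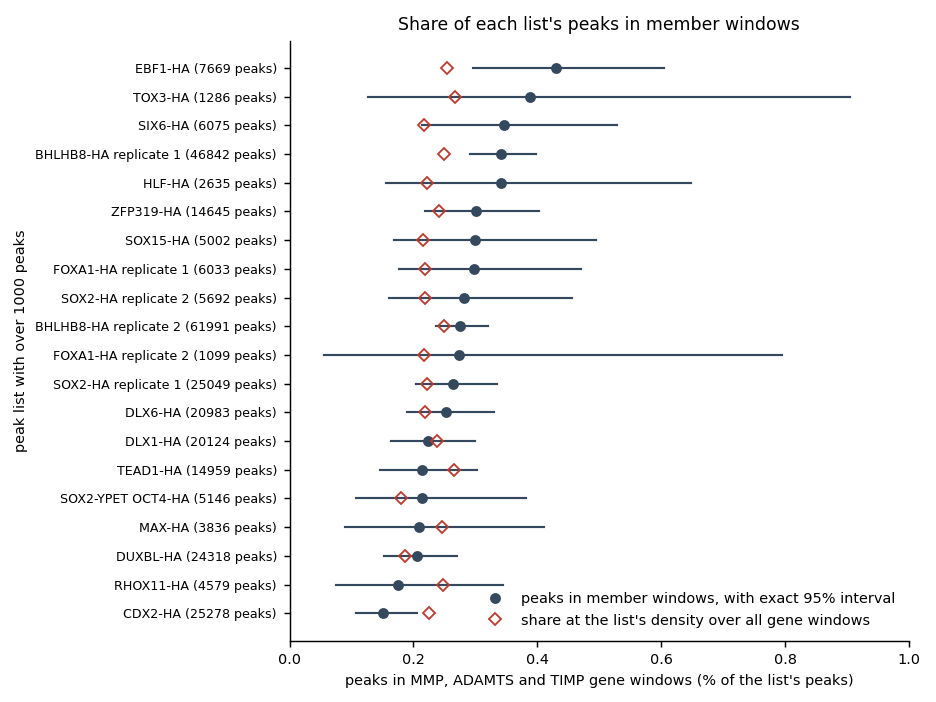
Share of each list's peaks that lie in member windows (horizontal axis, % of the list's peaks; points with exact 95% intervals) for the 20 lists with more than 1000 peaks, with open diamonds for the share given by the list's density over all protein-coding gene windows. The diamond lies outside the interval for EBF1-HA and BHLHB8-HA replicate 1, whose points are above it, and for CDX2-HA, whose point is below.

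At shared sites the same few constructs recurred. BHLHB8-HA and SOX2-HA had a peak at 22 of 22, DLX6-HA at 21, DLX1-HA at 15, SIX6-HA at 13, SOX15-HA at 11, EBF1-HA at 10, FOXA1-HA at 9 and DUXBL-HA at 8. Over all 9440 shared sites of the genome the shares were 94.0% for BHLHB8-HA, 87.7% for SOX2-HA, 90.1% for DLX6-HA and 80.7% for DLX1-HA, so the leading constructs around members were those that lead elsewhere. SIX6-HA had 59.1% of shared member sites and 39.2% of all shared sites, and TEAD1-HA had 1 of the 22 (4.55%, and 6.88% of all). CDX2-HA had 6, HLF-HA 5, TOX3-HA 4, MAX-HA and ZFP319-HA 3 each, and BRACHYURY-HA and RHOX11-HA 1 each. The co-expression list had none.

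Single sites were led by BHLHB8-HA too. DUXBL-HA, ZFP319-HA, CDX2-HA and TEAD1-HA followed, which had peaks at 8, 3, 6 and 1 of the shared sites. SOX2-HA, with peaks at all 22 shared sites, came next. BHLHB8-HA had 157 of the 335 (46.9%, and 39.7% of all single sites). DUXBL-HA had 36 (10.7%, and 14.3% of all), ZFP319-HA 31 (9.25%, and 8.41%) and CDX2-HA 30 (8.96%, and 15.3%). TEAD1-HA had 25 (7.46%, and 7.8% of all) and SOX2-HA 18 (5.37%, and 4.69%), while DLX1-HA had 2 and FOXA1-HA 2. CDX2-HA and DUXBL-HA thus held smaller shares of the single member sites than of all single sites, which was not tested. Of the BHLHB8-HA single sites, 50 were in replicate 1 alone, 81 in replicate 2 alone and 26 in both. The widest single site of each of the 5 constructs with most of them lay 28 bp from the start of Adamts4 for BHLHB8-HA (1516 bp wide), in a terminal exon of Adamts1, 7383 bp from its start, for CDX2-HA (741 bp), upstream of Mmp28 for DUXBL-HA (385 bp), in a coding exon of Adamts17 461 bp from its start for TEAD1-HA (841 bp), and 3333 bp upstream of Adamts13 for ZFP319-HA (750 bp). Those of DUXBL-HA and ZFP319-HA hold AP-1 letters in their 200 bp core.

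Shared and single member sites were then compared for AP-1 letters in the 200 bp core. The letters lay in 8 of 22 shared sites (36.4%, exact 95% interval 17.2 to 59.3) and 25 of 335 single sites (7.46%, interval 4.89 to 10.8). This difference of 28.9 percentage points passed Fisher's exact test, two-sided (p = 0.000289, adjusted p = 0.00434 over a family of 15 features). The 8 sites belonged to Adamts12 (3 sites), Mmp2, Mmp11, Mmp28, Timp2 and Adamts2 (1 each). Over all sites of the genome, of which these are part, the shares were 29.9% and 7.12%. The call rested on Adamts12, since without this gene the difference was 20.6 points (Fisher's exact test, adjusted p = 0.17). It was also not called by Fisher's exact test with a 100 bp core (13.7 points, adjusted p = 0.171) or with shared sites defined by 8 or more constructs, of which there were 9 (14.8 points, adjusted p = 1.00). The test takes sites as units, and neighbouring sites of 1 gene are not independent.

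No other feature of the family passed the test. The E-box CAGCTG, the preferred sequence of BHLHB8, lay in 36.4% of shared and 23.9% of single sites (adjusted p = 0.754, Fisher's exact test), and SOX letters, ACAAAG or ACAATG, in 22.7% and 21.5%. Shared sites lay within 1 kb of a protein-coding start in 0 of 22 cases, which allows a share of up to 13.6%, and single sites in 39 of 335 (11.6%), with p = 0.150 and adjusted p = 0.754 in Fisher's exact test. When shared meant 3 or more constructs, the promoter share of shared sites lay 7.23 points above that of single ones (Fisher's exact test, adjusted p = 0.556), so no direction was established. Of the 22 shared sites, 14 were in introns, 7 upstream and 1 downstream of the member. Their median width was 853 bp, against 292 bp for single sites, and their median distance to the nearest protein-coding start was 10446 bp, against 18002 bp. Member sites of 2 to 4 constructs lay nearer, at a median of 7775.5 bp. Over all sites of the genome the median distances were 29066 bp for shared and 31592.5 bp for single sites.

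**Figure D5:**
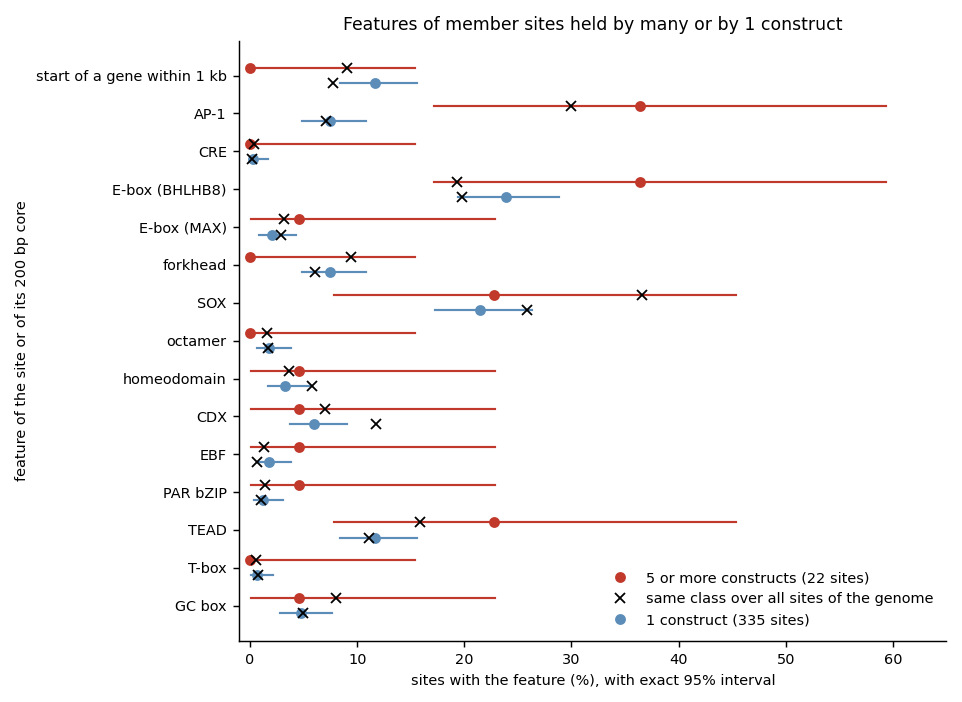
Share of member sites with each feature (horizontal axis, %, with exact 95% intervals) for the 22 sites of 5 or more constructs (red) and the 335 sites of 1 construct (blue), with crosses for the same classes over all sites of the genome. AP-1 letters are in 36.4% of the former and 7.46% of the latter, a difference that passed Fisher's exact test with Adamts12 included, and the intervals of other features overlap.

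For each construct with a motif of its own, the sites it held were set beside the member sites it did not hold. CAGCTG lay in 93 of 243 BHLHB8-HA sites (38.3%) and in 18 of the other 194 (9.28%). SOX letters lay in 27 of 65 SOX2-HA sites (41.5%, others 18.01%), and CDX letters (TTTATGG or TTTATTG) in 9 of 38 CDX2-HA sites (23.7%, others 3.76%). The TEAD sequence CATTCC lay in 0 of 32 TEAD1-HA sites, which allows up to 9.38%, and in 54 of the other 405 (13.3%). AP-1 letters were in 0 of these 32 sites as well, and in 0 of the 11 co-expression sites. BHLHB8-HA had them in 25 of 243, SOX2-HA in 18 of 65, TOX3-HA in 2 of 5, SOX15-HA in 7 of 14 and SIX6-HA in 7 of 21. Shared sites made up 11 of the SOX15-HA and 13 of the SIX6-HA sites, so these shares are not separate from sharing. The other constructs had few sites with their own letters. For the homeodomain letters TAATTA the share was 6.98% of 43 DLX1-HA sites (others 3.05%) and 5.77% of 52 DLX6-HA sites (others 3.12%). Forkhead letters (TGTTTAC or TATTTAC) lay in 2 of 17 FOXA1-HA sites (11.8%, others 6.19%), and SOX letters in 5 of 14 SOX15-HA sites (35.7%, others 21.0%). EBF letters were in 3 of 33 EBF1-HA sites, CACGTG in 1 of 8 MAX-HA sites, and PAR bZIP letters (TTACGTAA, TTATGTAA and TTACATAA) in 1 of 9 HLF-HA sites. The octamer, ATGCAAAT and its variant ATGCTAAT, was in 0 of 11 co-expression sites, which allows up to 27.3%, and the T-box letters AGGTGTGA were not in the only BRACHYURY-HA site. These shares are descriptions without a test, as each construct's list was called on its own.

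Own promoters, meaning sites centred within 1 kb of a protein-coding transcript start of the member itself, were found at 24 of 45 members (53.3%), where 59.9% of all protein-coding genes had one. There were 34 such sites, of which 21 were single and none was shared. BHLHB8-HA was at the promoters of 16 members (35.6%, background 46.6%): Adamts1, Adamts2, Adamts4, Adamts5, Adamts6, Adamts7, Adamts10, Adamts12, Adamts14, Adamts16, Mmp2, Mmp11, Mmp14, Mmp28, Timp2 and Timp3. TEAD1-HA was at 11 (24.4%, background 31.9%), namely Adamts2, Adamts3, Adamts8, Adamts9, Adamts17, Adamts18, Adamts20, Mmp15, Mmp17, Mmp28 and Timp2. Both were at Adamts2, Mmp28 and Timp2, and 8 of the 11 TEAD1-HA promoter sites had no other construct. The promoters with most constructs were those of Adamts1, with 2 sites of 4 constructs, and Timp3, with 1 of 4. One of the Adamts1 sites, 670 bp past its nearest start, holds AP-1 letters, a CAGCTG and a CACGTG, and is given on the forward strand with AP-1 in capitals.
Adamts1, promoter, 4 constructs, chr16:85800712-85800911: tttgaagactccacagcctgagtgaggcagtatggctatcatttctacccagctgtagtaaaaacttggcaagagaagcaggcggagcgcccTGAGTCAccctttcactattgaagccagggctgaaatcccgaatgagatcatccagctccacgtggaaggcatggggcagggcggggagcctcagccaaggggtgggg

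The comparison of wild-type FOXA1 with its 2 mutants asked whether weakened nonspecific binding changes occupancy at these genes. FOXA1-HA had 18 and 3 peaks in member windows, and FOXA1_RR-HA and FOXA1_SW-HA had 0 of 151 and 0 of 147, which allows shares of up to 1.99% and 2.04% of their peaks. The wild-type peaks made up 0.298% and 0.273% of their lists, far under these limits, so a lower share in the mutants was not detectable at this size of list. The mean log10(peaks + 1) differed by 0.94, with p = 0.333 in the exact permutation test, two-sided, the smallest p that 2 lists against 2 can give. The difference was 0.60 without FOXA1-HA replicate 1, 1.28 without replicate 2 and 0.50 with peaks of at least 300 bp. The 17 merged FOXA1-HA sites were at Mmp2, Mmp8, Mmp11, Mmp28, Adamts2, Adamts8, Adamts12, Adamts14, Adamts16, Timp2 and Timp3, and 9 of them were shared sites.

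OCT4-HA alone had 0 of 95 and 0 of 52 peaks in member windows, which allows up to 3.16% and 5.77%, whereas OCT4-HA with SOX2-YPet had 11 of 5146 (0.214%, interval 0.107 to 0.382). These are 3 lists of unequal length, with 1 list of the co-expression, so the difference has no test. The 11 sites were at Adamts genes, with 7 in Adamts12 and 1 each in Adamts9, Adamts17, Adamts18 and Adamts20. Adamts windows made up 3.10 of the 4.80 Mb of member windows and held 267 of the 437 sites of all constructs. None of the 11 was a SOX2-HA site, where 3.99% of all co-expression sites were. There were 3 of the 11 in BHLHB8-HA replicate 2 and 0 in replicate 1, where the shares over all co-expression sites were 32.2% and 6.17%, and the part of this overlap in the result was not tested.

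The duplicates agreed to different degrees. Of the 160 member peaks of BHLHB8-HA replicate 1, 86 (53.8%, interval 45.7 to 61.7) overlapped a peak of replicate 2 by at least 1 bp, and over all its peaks the share was 53.3%. All 16 member peaks of SOX2-HA replicate 2 and all 3 of FOXA1-HA replicate 2 overlapped a peak of the longer replicate. The mean number of member peaks was 165.5 ± 7.78 (SD, n = 2) for BHLHB8-HA, 41.0 ± 35.4 (SD, n = 2) for SOX2-HA and 10.5 ± 10.6 (SD, n = 2) for FOXA1-HA, so the numbers of the last 2 TFs moved with the length of the list.

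Other genes of the system were counted from lists chosen with earlier results of these data known, and every gene of the lists given here had a site, where 88.5% of all protein-coding genes had one. Counts of genes with a shared site stand beside a background of 24%, and lists this short were not tested against it. The 6 ADAMTS-like genes, which encode relatives without a protease domain, had 12 shared sites at 3 genes, Adamtsl4 with 5 and up to 12 constructs, Adamtsl1 with 4 and Adamtsl3 with 3. The 8 ADAM genes had 8 shared sites at 4 genes, with 3 at Adam19 and 2 each at Adam9 and Adam17, a membrane shedding protease that Timp3 inhibits. Among activators and surface regulators Furin had 1 shared site, and Reck, Bsg, Tfpi2 and Pcsk5 had 4, 7, 1 and 32 sites and no shared one. Of the hyalectans, substrates of the ADAMTS proteases, Ncan had 1 shared site, and Acan, Vcan and Bcan had 3, 9 and 6 sites.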

How the data were processed

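The authors aligned 37-nt paired-end reads to mm10 with STAR 2.5.3a, handled duplicates with Picard, called peaks in each sample with MACS2 2.1.1.20160309 and removed peaks found in the input or in blacklisted regions. The deposited files hold peak positions alone, with no signal, score or read count, so depth and the precision it gives are unknown, and list length was used as deposited.

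Groups followed the sample labels. Peaks were converted to 1-based positions, touching peaks of all 28 lists were merged, and sites were assigned to GENCODE vM21 windows of gene body plus 20 kb. Shared meant 5 or more constructs. Motifs, both strands, were searched in GRCm38.p6 (200 bp cores) and RefSeq promoters. AP-1 was TGAGTCA, which shares no full match with the CRE letters TGACGTCA. Shares were tested by a two-sided Fisher's exact test with Benjamini-Hochberg adjustment over 15 features, with exact Clopper-Pearson 95% intervals, and with 3 counts of the total as the limit printed for a count of 0. FOXA1 was compared by an exact permutation test. Python 3.11.15, NumPy 2.4.6, SciPy 1.17.1 and Matplotlib 3.10.9 were used, and the counting was tested on simulated data.

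The members and gene lists were chosen with earlier results of these data known. Named were the 10 members with most sites, members without a site, textbook AP-1 targets, all TIMPs and members with a promoter site. Named sites were the 10 with most constructs and the widest single site of each construct with at least 20. Any further names were picked with their values in view. The study describes the duplicate lists as biological replicates. The input sample was not analysed here. A further gene list is not reported here.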

Additional observations from a re-analysis of the deposited data

How the results depend on the processing

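Of 119 alternatives over all results, 104 were scored as unchanged, and members with a peak ranged from 33 to 45. For counts this meant within a set fold of the reported value. Density, co-expression and duplicates had to stay within its counting interval, and the AP-1, promoter and FOXA1 differences had to keep direction and call. Some alternatives could not change member sites, since OCT4-HA had no member peak and no member site lay on the X chromosome. The FOXA1 permutation test could not reach 0.05 in any. Sites numbered 264 in gene bodies alone, 240 with peaks of at least 300 bp, 279 where the nearest start is a member's, and 281 without both BHLHB8-HA lists. Shared sites numbered 14 in gene bodies, 35 with 50 kb on either side, 53 with 3 or more constructs and 9 with 8 or more. These follow from the narrower or wider definitions. The density ratio turned to 0.867 as a mean over constructs, in which 6 constructs count as 0, and was 1.03 without Adamts12. The AP-1 difference lost its call with 8 or more constructs (14.8 points, adjusted p = 1.00, Fisher's exact test), with a 100 bp core (13.7, adjusted p = 0.171) and without Adamts12 (20.6, adjusted p = 0.17), with adjusted p from 1.65e-06 to 1.00 over its alternatives. Beyond fewer sites in the first and last of these, the cause was not tested. The promoter difference turned to 7.23 points with 3 or more constructs (Fisher's exact test, adjusted p = 0.556), and the cause was not tested. BHLHB8-HA duplicates shared 35.0% under a reciprocal overlap of 50%. Leaving out each duplicate list in turn changed no call. Leaving out Adamts12 or both BHLHB8-HA lists, and counting Mmp1a, were chosen after seeing the data. No paired analysis was possible because the FOXA1 mutants and the co-expression list carry no replicate numbers. Lists of 52 to 396 peaks limit what an absence of member peaks can show.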
